A study of Homo sapiens with 3 samples.

Results

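The genes of the NF-kB transcription factors and of well-known NF-kB targets were examined for 2 active chromatin marks in H2087 cells, a long-established line from a human lung adenocarcinoma. They were 10 genes chosen by name, from knowledge of the pathway and by no cut on their values. Earlier results of these data were known when they were chosen. The 10 were the factor genes NFKB1, NFKB2, RELA and RELB, the inhibitor gene NFKBIA, the negative regulator TNFAIP3, and the targets BIRC3, CXCL8, CXCL1 and ICAM1. All 10 were found among the 20163 protein-coding genes of the annotation (GENCODE 44 on the human genome build hg19, used for all positions). A peak, a stretch of genome in which the mark was called above background, was counted for a gene when it lay over the gene or within 50 kb of it, and this stretch is called the window of the gene. The windows held 46 of the 24096 peaks of acetylation of histone H3 at lysine 27 (H3K27ac) and 31 of the 18585 peaks of trimethylation at lysine 4 (H3K4me3).

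The marks were mapped by chromatin immunoprecipitation followed by sequencing (ChIP-seq), to find regions of histone modification in lung adenocarcinoma cells. The cells were untreated, so no agent that induces NF-kB is recorded, and were grown in RPMI medium with fetal bovine serum. Chromatin was taken with an antibody against H3K27ac (abcam ab4729) in 1 library and against H3K4me3 (abcam ab8580) in 1 library, and an input library was not analysed here. With 1 library per mark there was no replicate (n = 1 for each value), no difference was tested, and the exact Clopper-Pearson 95% intervals given below cover counting error only.

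NF-kB is a family of dimeric transcription factors. In resting cells inhibitor proteins of the IkB family hold the dimers in the cytoplasm, or the factor is still part of a longer precursor. Cytokines and microbial products activate the IkB kinase complex, the inhibitor is degraded, and the dimers enter the nucleus and bind a short DNA motif, the kappaB site. Among the genes switched on are those of the inhibitors themselves, which close a feedback loop, and those of chemokines, adhesion molecules and proteins that block cell death. In lung tumours the pathway is known for its part in inflammation and cell survival. H3K4me3 is typical of active promoters, and H3K27ac of active promoters and enhancers.

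The epithelial label of the cells was checked first. All 5 epithelial marker genes (EPCAM, CDH1, KRT8, KRT18 and KRT19) had H3K4me3 at the start and 4 of 5 had H3K27ac there. None of 4 leukocyte, 2 endothelial and 3 fibroblast marker genes had either mark at the start, intervals that reach up to 60.2%, 84.2% and 70.8% for so few genes. Of 4 genes often expressed in lung adenocarcinoma, NKX2-1 had both marks at its start, while NAPSA, SFTPB and SFTPC had neither. A start was called marked when a peak lay within 1 kb of the outer 5′ end of the gene.

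Of the 10 NF-kB genes, 3 had a start marked by H3K4me3 (NFKB2, RELA and NFKBIA), a share of 30% (6.67 to 65.2), beside 38.2% of all protein-coding genes. H3K27ac marked 2 starts, those of RELA and NFKBIA, a share of 20% (2.52 to 55.6) beside 23.6% of all protein-coding genes. Both marks were thus at 2 starts, beside 18.6% of all genes, and 7 genes (NFKB1, RELB, TNFAIP3, BIRC3, CXCL8, CXCL1 and ICAM1) had neither, beside 56.8% of all protein-coding genes. These shares lay near the background of the annotation, so marked starts as such did not set the 10 genes apart. In the windows, H3K27ac was found for 8 of 10 genes beside 63.9% of all protein-coding genes, and H3K4me3 for 6 of 10 beside 70.2%. TNFAIP3 and CXCL1 had no peak of either mark in the window, as had 23.6% of all protein-coding genes. No peak of either mark lay over the gene itself for 6 of 10, beside 45.5% of all.

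**Figure D1:**
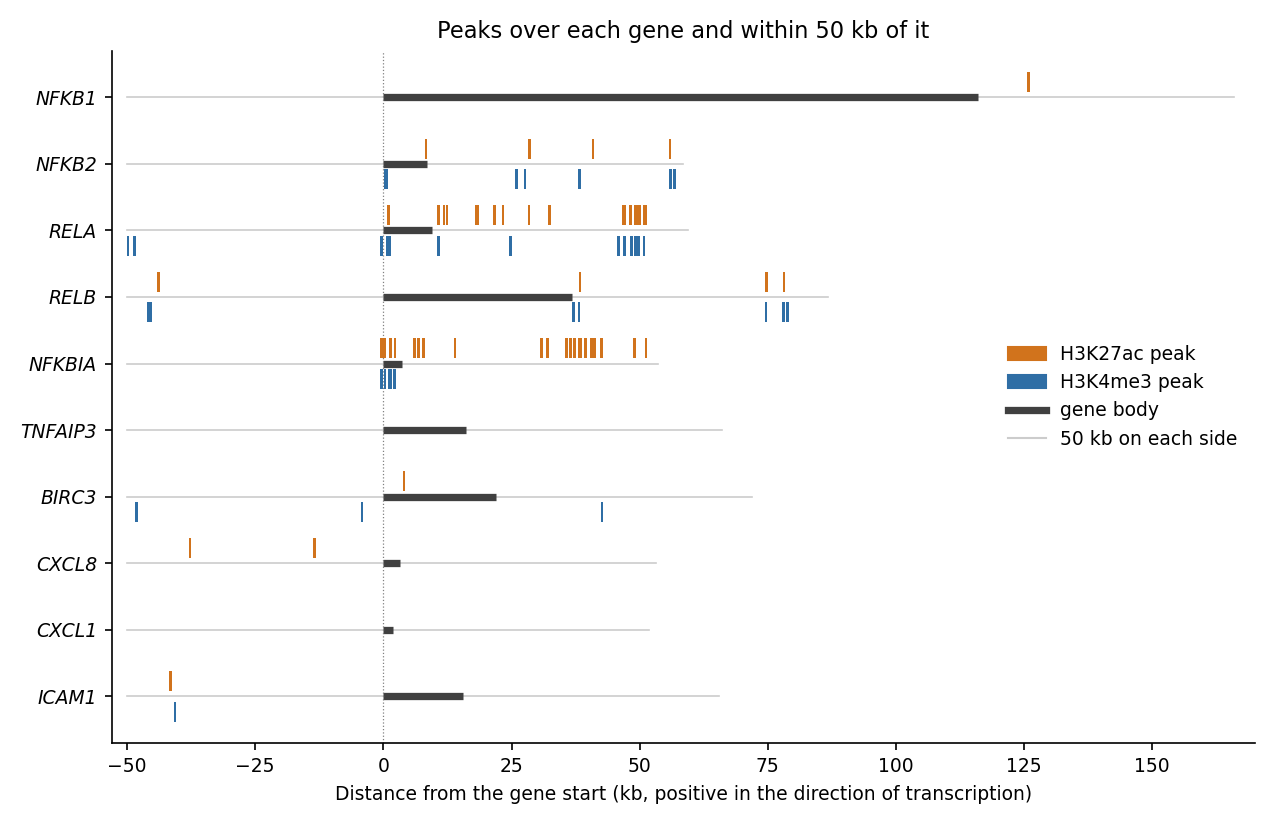
Peaks of H3K27ac (orange, above each line) and H3K4me3 (blue, below) over each of the 10 genes (thick bar) and within 50 kb of it (thin line), by distance in kb from the gene start, positive in the direction of transcription. The H3K27ac peaks gathered at NFKBIA (20) and RELA (13), while the lines of TNFAIP3 and CXCL1 were empty.

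The peaks were spread unevenly over the 10 windows. NFKBIA had 20 H3K27ac peaks and RELA 13, which together made up 71.7% of the 46. NFKB2 and RELB had 4 each, CXCL8 had 2, and NFKB1, BIRC3 and ICAM1 had 1 each. The median protein-coding gene had 1 H3K27ac peak in its window, with quartiles of 0 and 4. H3K4me3 followed another order, with 11 peaks for RELA, 6 each for NFKB2 and RELB, 4 for NFKBIA, 3 for BIRC3 and 1 for ICAM1, against a median of 2 over all protein-coding genes. NFKB1, CXCL8, TNFAIP3 and CXCL1 had no H3K4me3 peak in the window. Windows differ in length with the gene, from 101.9 kb for CXCL1 to 216.0 kb for NFKB1, and the longest window was one of those with the fewest peaks.

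Each peak carries a −log10 q, its strength in the peak caller's own terms, which can be read only within the list of 1 mark and is 1.30 for a q of 0.05. The H3K27ac peaks of the windows had values of 1.30 to 7.56 with a median of 2.92, and the H3K4me3 peaks values of 1.45 to 8.34 with a median of 3.56. The whole lists had medians of 2.65 for H3K27ac and 2.97 for H3K4me3, and maxima of 29.2 and 146. More of the window peaks lay above the median of their list than below it (26 of 46 for H3K27ac and 17 of 31 for H3K4me3), and 4 and 7 of them reached 5. That was 8.70% (2.42 to 20.8) of the H3K27ac and 22.6% (9.59 to 41.1) of the H3K4me3 peaks of the windows, beside 8.84% and 16.7% of the whole lists, so the strengths of these peaks lay in the range usual for each list.

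**Figure D2:**
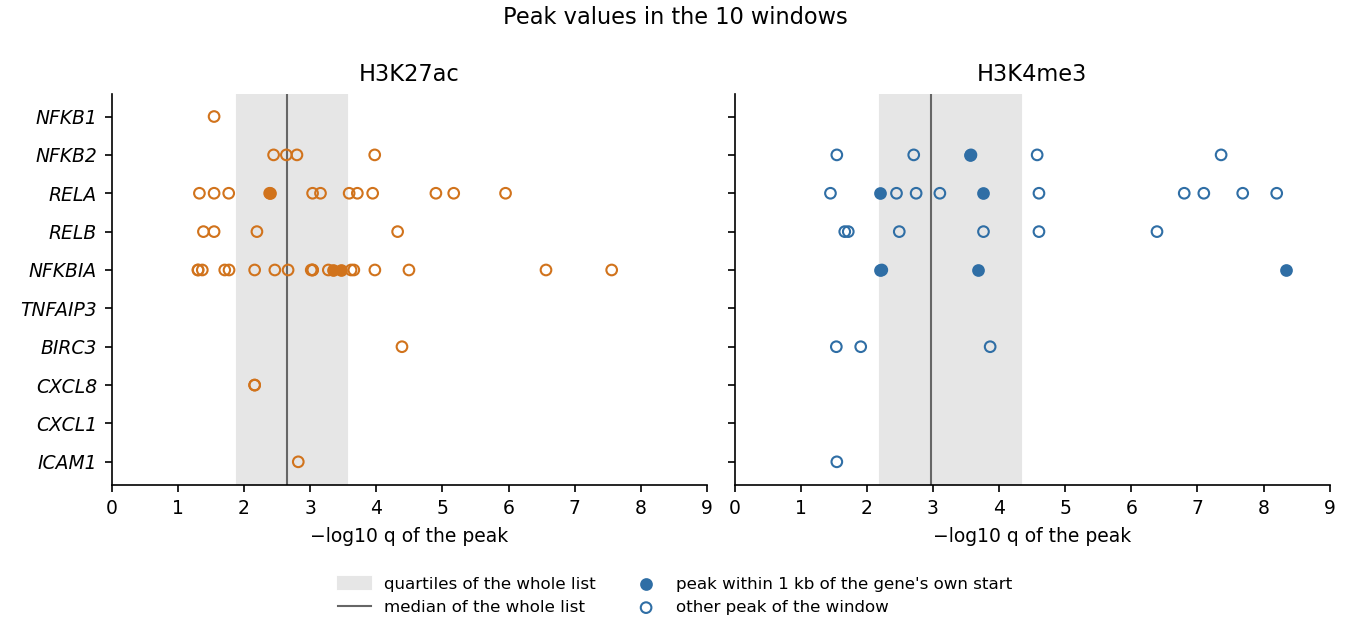
−log10 q of each peak in the 10 windows, for H3K27ac (left) and H3K4me3 (right). Filled points are peaks within 1 kb of the gene's own start, open points the other peaks of the window, the line is the median and the grey band spans the quartiles of the whole list. The 2 peaks of CXCL8 have the same value, 2.16, and appear as 1 point.

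NFKBIA, which encodes the inhibitor IkB-alpha and is itself an early NF-kB target, had the most H3K27ac peaks of the 10 genes. The gene lies on chr14:35870285-35873955 (minus strand). As many H3K27ac peaks as its 20, or more, were found in the windows of 1.16% of protein-coding genes, and they covered 8.48 kb or 8.18% of the window. Its 4 H3K4me3 peaks were unremarkable in number, since 70.8% of protein-coding genes had fewer. No other protein-coding gene starts in the window, so none of these peaks lay at the start of a neighbouring protein-coding gene. Within 1 Mb of the NFKBIA start lay 72 H3K27ac and 43 H3K4me3 peaks, more than for 87.3% and 78.8% of protein-coding genes. The part of this density in the peaks counted for NFKBIA was not tested.

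The 4 H3K4me3 peaks of NFKBIA lay over parts of the gene and upstream of its start, and none covered the start itself. The strongest, at chr14:35872235-35873033, was 799 bp wide, lay over exons 2 and 3 and had a −log10 q of 8.34, above 97.2% of the list. The others lay over exon 1 (3.68), over exons 4 and 5 (2.23) and upstream of the start (2.20). Each of them overlapped an H3K27ac peak, and the 4 H3K27ac peaks concerned had values of 2.67 to 3.98. The marks thus ran side by side along this short gene, with the H3K4me3 maximum inside the gene, 0.922 kb from the start at its nearest edge.

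Downstream of NFKBIA the picture was of H3K27ac alone. A peak at chr14:35859743-35860179, centred 14.0 kb from the start and past the end of the gene, had a −log10 q of 7.56, above 98.4% of the list and the highest H3K27ac value in the 10 windows. Farther on, 12 peaks had their nearer edge 30.5 to 51.1 kb from the start, the strongest of them at chr14:35835122-35836022 (901 bp, −log10 q 6.57). Joining H3K27ac peaks less than 10 kb apart gave a region of 21.0 kb for these 12, chr14:35822517-35843488, with 5.60 kb under peaks and no H3K4me3 peak. Of the 4606 such regions with 2 or more peaks in the whole list, 97.3% had fewer peaks. One of the 12 peaks covered the start of a long noncoding RNA gene, ENSG00000258860. A second region of 14.7 kb, chr14:35859743-35874478, joined the other 8 peaks, among them those of the gene itself. Of the 20 peaks, 3 consisted for the most part of sequence that occurs more than once in the genome (54.4%, 62.6% and 72.3% of their 32-base words), where short reads are hard to place. The peaks with values of 7.56 and 6.57 held no repeated word. At the far end of the 21.0 kb region the peak had a value of only 1.31, near the list minimum of 1.30. The peak at its near end was the one with 72.3% repeated words.

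**Figure D3:**
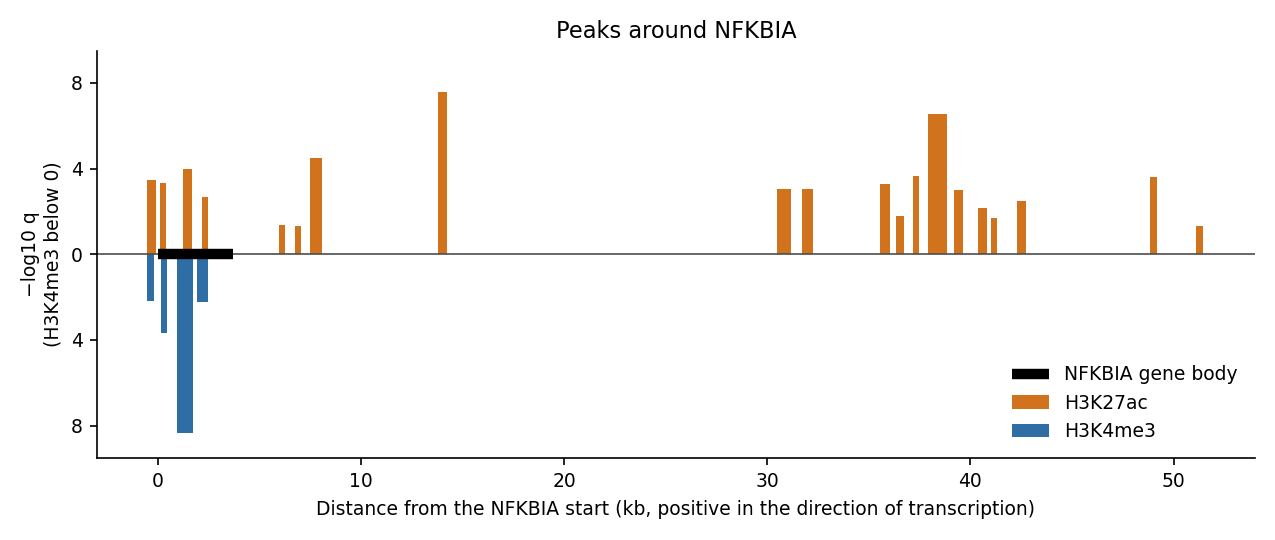
Peaks around NFKBIA by distance in kb from its start, positive in the direction of transcription. The height of a bar is the −log10 q of the peak, drawn upward for H3K27ac (orange) and downward for H3K4me3 (blue). Its width is that of the peak, except that the narrowest peaks are drawn wider to be visible. The 4 H3K4me3 peaks sit at the gene, while H3K27ac peaks go on to 51.1 kb (nearer edge), the farthest with a value of 1.31.

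The 250 bases before the NFKBIA start (chr14:35873956-35874205, minus strand) are shown because the deposited peaks leave a gap in them. All promoters here were taken from RefSeq, whose table is on GRCh38.p14, and found on hg19 by exact match. Each is printed 5′ to 3′ along its gene, and the capitals mark the kappaB consensus without its first G, read on either strand.
NFKBIA promoter: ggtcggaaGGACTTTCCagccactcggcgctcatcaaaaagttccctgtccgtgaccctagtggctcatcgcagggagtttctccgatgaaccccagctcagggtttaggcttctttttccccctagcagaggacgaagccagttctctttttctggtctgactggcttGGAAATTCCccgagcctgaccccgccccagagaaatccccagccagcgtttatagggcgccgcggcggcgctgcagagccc
The kappaB consensus is G, G, G, a purine, any pair of bases, a pair of pyrimidines, C and C, and it was searched on both strands. The match 81 to 72 bases before the start (chr14:35874027-35874036) lay between the peaks on either side, 46 bp from the nearest H3K27ac peak and 136 bp from the nearest H3K4me3 peak. The match farther upstream, 242 to 234 bases before the start, lacks the first G and lay under peaks of both marks. The central 200 bases of the H3K27ac peaks on either side of the gap each held the full consensus too. Matches are letters in a sequence and do not show that a factor was bound.

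The central 200 bases of the H3K27ac peak 14.0 kb from the NFKBIA start are shown because its −log10 q was the highest for this mark in the 10 windows (chr14:35859861-35860060, minus strand).
NFKBIA H3K27ac peak: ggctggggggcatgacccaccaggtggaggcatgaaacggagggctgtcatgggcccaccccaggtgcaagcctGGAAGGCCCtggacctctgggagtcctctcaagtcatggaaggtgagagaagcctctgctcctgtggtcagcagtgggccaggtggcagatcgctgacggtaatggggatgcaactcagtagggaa
They hold a match to the form without its first G and none to the full consensus.

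RELA encodes the subunit that carries the strongest activation domain of the most common NF-kB dimer, and its gene on chr11:65421070-65430561 (minus strand) was the other one with both marks at the start. An H3K4me3 peak of 356 bp lay 228 bp upstream, at chr11:65430789-65431144, within the divergent noncoding gene RELA-DT, with a −log10 q of 3.76. A wider one (843 bp, 2.20) lay over exons 2 to 4. The only H3K27ac peak over RELA, at chr11:65429323-65429700 over exons 2 and 3, had a value of 2.40, under the list median of 2.65, and 861 bp separated it from the start. The starts of the other 4 protein-coding genes in the window had H3K4me3 too. At the starts of MAP3K11 and PCNX3, at the far end of the window, H3K4me3 reached 8.20 and H3K27ac 4.90. At SIPA1, with its peak 24.6 kb from the RELA start, H3K4me3 reached 7.10. KAT5, at the other end of the window, had a lower H3K4me3 value (3.11) than the RELA start, and neither SIPA1 nor KAT5 had H3K27ac at its start.

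Many peaks of the RELA window therefore belonged to other genes by position. Of its 13 H3K27ac peaks, 1 lay at the RELA start and 2 at the starts of other protein-coding genes, and of its 11 H3K4me3 peaks, 2 and 5. A joined H3K27ac region of 31.7 kb, chr11:65398019-65429700, ran from inside PCNX3 past the SIPA1 start to RELA with 9 peaks, more than 94.9% of the regions. Only 3.33 kb of it lay under peaks. The peaks inside PCNX3 and just past the SIPA1 start were weak, with −log10 q of 1.55, 1.33 and 1.77. The others had values of 2.39 to 5.17. The RELA peak (2.40) was joined only across a gap without H3K27ac peaks, from chr11:65419978 to chr11:65429323, just under the joining distance. The wider neighbourhood was dense as well, with 193 H3K27ac and 145 H3K4me3 peaks within 1 Mb of the start, more than for 99.7% and 99.8% of protein-coding genes. The part of this density in the peaks counted for RELA was not tested. Neither mark covered a match in the RefSeq promoters of RELA: the promoter closest to the gene start held none, and that of the start at chr11:65431328 held only GGAGCATCC, a match without its first G, 226 bp from the nearest H3K4me3 peak. Inside the gene, the central 200 bases of the peaks of both marks over exons 2 and 3 held the full consensus.

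NFKB2, which encodes a precursor processed to a subunit of the noncanonical pathway, was marked at its start by H3K4me3 alone. Its gene lies on chr10:104153867-104162281 (plus strand). The peak, chr10:104153939-104154817, began 72 bp into the gene, was 879 bp wide and had a −log10 q of 3.56, above 61.3% of the list. It lay over the first exons of some transcripts and ended before the canonical one. A RefSeq start at chr10:104154335, 468 bp inside the gene, lay under this peak together with its kappaB matches GGGAATTCCCC, 107 to 97 bases before that start, and GGGGCTTTCC, 78 to 69 bases before it. Another RefSeq start, 1595 bp inside the gene, had matches at GGGGCTTCCC and GGGACTTTCC, 469 and 624 bp outside the peak. The nearest H3K27ac peak was 8.16 kb away, over the last exon of NFKB2 (exon 23, coding part and 3′ UTR), with a value of 2.64, close to the list median.

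RELB, the partner of the NFKB2 product in the noncanonical pathway, and NFKB1, the precursor of the other classical subunit, had no peak over the gene. The gene of RELB lies on chr19:45504719-45541450 (plus strand), and its nearest peaks were 38.2 kb (H3K27ac) and 37.0 kb (H3K4me3) from the start, past the end of the gene. All 6 H3K4me3 peaks of its window, and 3 of the 4 H3K27ac peaks, lay at the starts of CLPTM1, CLASRP, ZNF296, GEMIN7 or MARK4. The highest values there were 6.39 for H3K4me3 at CLASRP and 4.32 for H3K27ac at GEMIN7 and MARK4. Of the 32-base words within 1 kb of the RELB start, 15.1% occurred more than once in the genome, the highest share among the 10 starts.

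For NFKB1, on chr4:103422487-103538459 (plus strand), the only peak in the window was an H3K27ac peak at chr4:103548213-103548454, past the end of the gene and 125.7 kb from its start, with a low −log10 q of 1.55. It was also the only H3K27ac peak within 1 Mb of the NFKB1 start, where the median protein-coding gene had 24. H3K4me3 had 6 peaks within 1 Mb, against a median of 19. The surroundings of NFKB1 were thus sparse in both lists, and few reads cannot be told apart from few marked regions in a list of peaks. No 32-base word within 1 kb of its start was repeated.
NFKB1 promoter: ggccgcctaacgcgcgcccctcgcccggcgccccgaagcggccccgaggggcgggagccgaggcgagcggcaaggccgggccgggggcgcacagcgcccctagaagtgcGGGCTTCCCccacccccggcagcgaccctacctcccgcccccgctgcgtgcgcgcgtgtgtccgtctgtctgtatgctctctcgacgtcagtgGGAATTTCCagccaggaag
This stretch (chr4:103422266-103422486, plus strand, ending at the base before the gene start) is shown because an unmarked start held a full kappaB match, GGGAATTTCC, 49 to 40 bases before the RefSeq start.

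Among the negative regulators, TNFAIP3 stood in contrast to NFKBIA. Its product is a ubiquitin-editing enzyme that dampens the signal, and like NFKBIA it is a textbook target of NF-kB. The gene, on chr6:138188351-138204451 (plus strand), had no peak of either mark in its window. The nearest H3K27ac peak was 67.4 kb from the start and the nearest H3K4me3 peak 294.3 kb, and 62.1% and 87.7% of protein-coding genes had a peak nearer to their start. Within 1 Mb there were 4 peaks of each mark. The promoter nevertheless held matches on both sides of a short spacer (chr6:138188146-138188350, plus strand).
TNFAIP3 promoter: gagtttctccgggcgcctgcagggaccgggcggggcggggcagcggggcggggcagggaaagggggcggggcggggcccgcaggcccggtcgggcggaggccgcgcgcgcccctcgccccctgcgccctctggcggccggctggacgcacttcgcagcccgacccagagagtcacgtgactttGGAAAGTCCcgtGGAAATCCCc
The stretches GGAAAGTCCC and GGAAATCCCC match the full consensus on the opposite strand and lay 67 to 46 bases before the RefSeq start. Only 2.03% of the 32-base words within 1 kb of the TNFAIP3 start were repeated.

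BIRC3 encodes a ubiquitin ligase that blocks cell death and acts in the signalling of tumour necrosis factor receptors. The gene lies on chr11:102188215-102210134 (plus strand), and its start had neither mark within 1 kb. The nearest H3K4me3 peak lay 4.11 kb upstream with a value of 1.91, above 20.4% of its list. The nearest H3K27ac peak lay in an intron, 3.96 kb inside the gene, with a value of 4.39, above 87.3% of its list. Of its 32-base words 86.0% were found more than once in the genome. The H3K4me3 peak within the neighbouring gene BIRC2 was of the same kind, with 89.4% repeated words and a value of 1.54. BIRC2 itself, which encodes a related ubiquitin ligase, had neither mark at its start.
BIRC3 promoter: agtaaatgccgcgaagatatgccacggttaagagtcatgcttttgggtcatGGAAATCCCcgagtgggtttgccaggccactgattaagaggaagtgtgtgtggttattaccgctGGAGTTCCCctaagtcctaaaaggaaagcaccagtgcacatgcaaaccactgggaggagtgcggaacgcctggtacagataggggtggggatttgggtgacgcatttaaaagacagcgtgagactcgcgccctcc
The promoter (chr11:102187965-102188214, plus strand) held full matches 199 to 190 and 135 to 126 bases before the start, 3915 and 3979 bp from the nearest H3K4me3 peak.

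The chemokine genes CXCL8 and CXCL1, whose products draw neutrophils into tissue, lie in a cluster on chromosome 4. CXCL8 (chr4:74606236-74609433, plus strand) had H3K27ac peaks 13.3 kb and 37.6 kb upstream of its start, each with a −log10 q of 2.16, above 30.9% of the list. No H3K4me3 peak lay nearer than 297.9 kb. Neither H3K27ac peak held a repeated 32-base word or lay at the start of a protein-coding gene. The nearer peak is printed as the marked sequence closest to CXCL8, without any kappaB match (chr4:74592646-74592909, plus strand), followed by the unmarked promoter (chr4:74606036-74606235, plus strand).
CXCL8 H3K27ac peak: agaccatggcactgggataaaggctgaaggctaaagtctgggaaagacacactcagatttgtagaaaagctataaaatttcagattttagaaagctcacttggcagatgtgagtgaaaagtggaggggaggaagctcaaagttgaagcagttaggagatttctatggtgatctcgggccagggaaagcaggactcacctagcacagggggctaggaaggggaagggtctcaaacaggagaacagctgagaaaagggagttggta
CXCL8 promoter: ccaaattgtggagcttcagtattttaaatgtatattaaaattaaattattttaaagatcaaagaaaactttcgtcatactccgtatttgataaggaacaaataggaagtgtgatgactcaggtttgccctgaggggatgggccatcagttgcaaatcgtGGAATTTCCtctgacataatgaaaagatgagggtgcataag
The promoter match GGAATTTCC, 91 to 83 bases before the RefSeq start, lacks the first G of the consensus.

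CXCL1 (chr4:74735110-74737025, plus strand) had no peak in its window, and the nearest peaks were 142.2 kb (H3K27ac) and 169.0 kb (H3K4me3) from its start. Only 6 H3K27ac and 4 H3K4me3 peaks lay within 1 Mb of it, and 6 and 3 within 1 Mb of CXCL8, a neighbourhood that the pair mostly share. The other protein-coding starts in the CXCL1 window, those of CXCL6 and PF4V1, were unmarked too.
CXCL1 promoter: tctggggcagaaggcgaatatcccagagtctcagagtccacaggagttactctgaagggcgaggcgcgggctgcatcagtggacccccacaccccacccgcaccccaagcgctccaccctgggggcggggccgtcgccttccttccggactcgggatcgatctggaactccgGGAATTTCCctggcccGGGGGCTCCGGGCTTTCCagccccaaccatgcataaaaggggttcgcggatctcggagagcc
This promoter (chr4:74734860-74735109, plus strand) held full matches in GGGAATTTCCC, 79 to 69 bases before the start, where a match on each strand overlapped the other. It also held a pair of adjoining matches without the first G, 62 to 45 bases before the start. The chemokine promoters thus carried kappaB letters in a stretch with no called peak.

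ICAM1, an adhesion molecule that leukocytes bind, lies on chr19:10381769-10397291 (plus strand) and had no peak over the gene. The nearest H3K27ac peak was 41.4 kb upstream (value 2.82, 68.6% repeated words) and the nearest H3K4me3 peak 40.6 kb upstream (value 1.55), both at the neighbours DNMT1 and S1PR2. The window holds 10 other protein-coding starts, more than for any other of the 10 genes. Of these, DNMT1 and S1PR2 had H3K4me3 within 1 kb from the same peak, and ICAM4 and ICAM5, which encode related adhesion molecules, had neither mark. The promoter of ICAM1 held GGAAATTCC, a match without its first G 186 to 178 bases before the RefSeq start, 40416 bp from the nearest H3K4me3 peak.

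**Figure D4:**
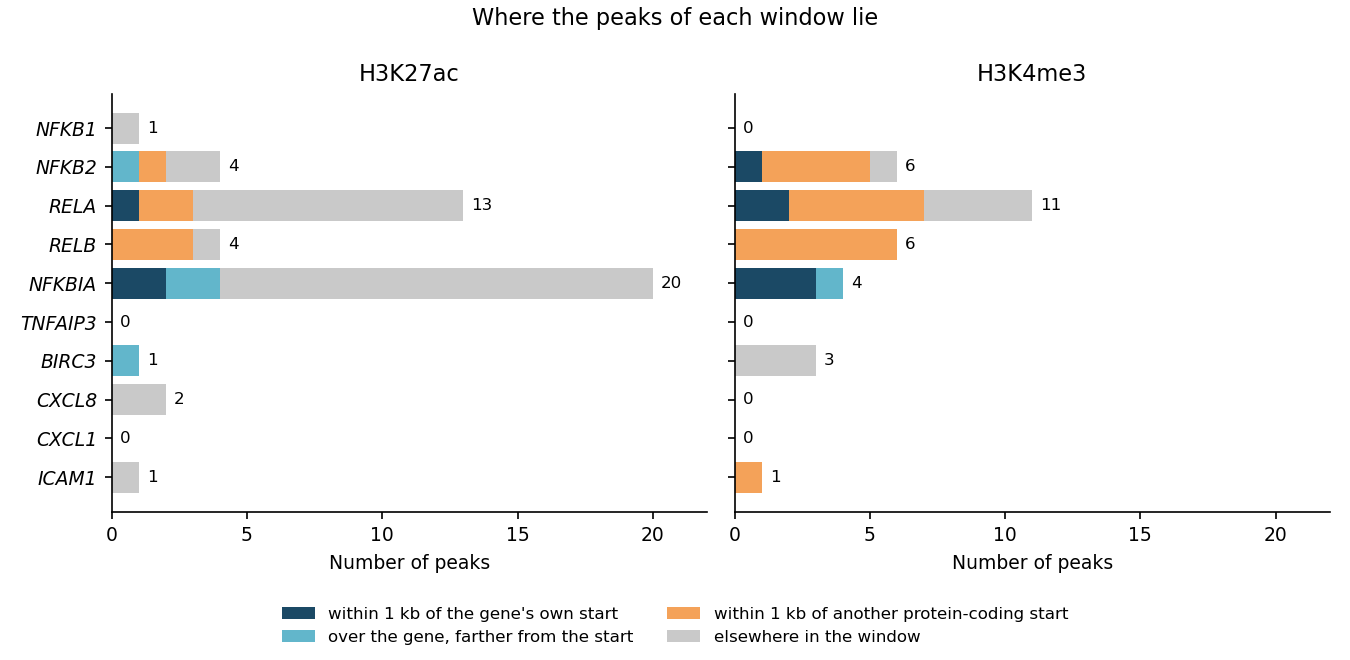
Number of H3K27ac (left) and H3K4me3 (right) peaks in each window by place: within 1 kb of the gene's own start, over the gene but farther from the start, within 1 kb of another protein-coding start, or elsewhere. The last class includes peaks inside neighbouring genes and at starts of noncoding genes. Most H3K27ac peaks lay elsewhere (33 of 46), and 16 of 31 H3K4me3 peaks lay at the starts of other genes.

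The peaks were sorted by where they lay. Of the 46 H3K27ac peaks, 3 lay at the gene's own start, 4 over the gene farther from the start, 6 at other protein-coding starts and 33 elsewhere, of which NFKBIA had 16 and RELA 10. Of the 31 H3K4me3 peaks the counts were 6, 1, 16 and 8. Elsewhere includes peaks inside neighbouring genes, such as PCNX3 and SIPA1 in the RELA window, and at starts of noncoding genes. Within 1 kb of any protein-coding start lay 19.6% (9.36 to 33.9) of the H3K27ac peaks of the windows, beside 20.5% of the whole list, and 71.0% (52.0 to 85.8) of the H3K4me3 peaks, beside 45.8%. Each window holds a gene start by choice, so these shares are no independent finding. The windows held 26 starts of other protein-coding genes, of which 15 had H3K4me3 and 7 had H3K27ac. The shares over all protein-coding genes were 38.2% and 23.6%. Close starts could share peaks, as did MAP3K11 with PCNX3 and GEMIN7 with MARK4, so the starts are not separate observations. All 13 in the windows of NFKB2, RELA and RELB, named after their values were seen, had H3K4me3. At NFKB2 these were PSD, FBXL15, CUEDC2 and C10orf95, with H3K4me3 values from 1.55 to 7.36. Of the H3K27ac peaks of the windows 30.4% (17.7 to 45.8) overlapped an H3K4me3 peak by at least 1 bp, beside 24.0% of the whole list. Of the H3K4me3 peaks 45.2% (27.3 to 64.0) overlapped H3K27ac, beside 31.1%. Both intervals include the share of the whole list, and the overlaps came from NFKBIA, RELA, RELB and NFKB2 only. All intervals on shares of peaks treat the peaks as separate observations. Yet 71.7% of the H3K27ac and 48.4% of the H3K4me3 peaks lay in the windows of RELA and NFKBIA.

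The promoters were also compared for sequence features. RefSeq promoters, which run from 250 bases before to 50 after a start, were matched for 9 of the 10 genes, all but RELB. The kappaB consensus was found in at least 1 promoter of 6 of these 9 genes (NFKB1, NFKB2, NFKBIA, TNFAIP3, BIRC3 and CXCL1), beside 11.3% of the 35116 promoters in the table. Without its first G it was found for all 9, beside 32.1%. As the genes were chosen from knowledge of the pathway, many as known targets of NF-kB, and some have several promoters, these counts describe the list and are no independent evidence. With only the promoter closest to each gene start, the counts were 5 and 7 of 9, NFKB2 and RELA lacking both forms. The letters TATAAA, searched on the gene's strand in the last 50 bases before the start, were found for CXCL8 and ICAM1, beside 2.63% of all promoters. Among the H3K27ac peaks of the windows, the central 200 bases held the full consensus in 7 of 46 (15.2%, 6.34 to 28.9), beside 9.46% of the 24096 peaks, a share inside the interval.

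A high content of CpG dinucleotides is common to promoters that carry H3K4me3. The CpG ratio, the number of CpG over the number expected from the C and G content, was at least 0.6 in the closest promoter of 8 of the 9 genes, and H3K4me3 was called at 3 of these 8 starts. Over all protein-coding genes with a single RefSeq promoter, 54.2% of the 7595 with such a ratio had H3K4me3 at the start, against 9.98% of the 3726 with a lower one. CXCL8, with a ratio of 0.351, was the only gene of the 9 under 0.6. The marked starts had ratios of 1.08 (RELA, the highest of the 9), 0.776 (NFKBIA) and 0.725 (NFKB2). The unmarked ones reached up to 0.918 (NFKB1) and 0.869 (TNFAIP3). The ratios of marked and unmarked starts thus overlapped among these 9 genes, and the part of CpG content in the marks was not tested.

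Other genes of the pathway were described from lists of 70 genes in all. Of these, 40% (28.5 to 52.4) had H3K4me3 at the start and 31.4% (20.9 to 43.6) had H3K27ac, beside 38.2% and 23.6% of all protein-coding genes. In the list of kinases, IkB proteins and REL, 5 of 9 had H3K4me3 and 5 of 9 had H3K27ac. CHUK and IKBKB, the catalytic IkB kinases, the inhibitor gene NFKBIE and the factor gene REL had both marks. REL had the highest H3K4me3 value of the list (5.61), followed by CHUK (3.76), NFKBIB (2.93) and IKBKB (2.49). IKBKG, the regulatory kinase subunit, and the nuclear IkB genes NFKBIZ and NFKBID had neither. BCL3, another nuclear IkB gene, had H3K27ac alone (3.71).

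Of 27 receptor, adaptor, kinase and ubiquitin enzyme genes, 15 had H3K4me3 (55.6%, 35.3 to 74.5) and 10 had H3K27ac (37.0%, 19.4 to 57.6). The highest H3K4me3 values were at RNF31 (9.43), the catalytic subunit of the linear ubiquitin ligase, at the adaptor genes TRADD (7.84) and TRAF6 (6.30), and at LTBR (5.47), the lymphotoxin-beta receptor. Neither mark was at TNFRSF1B, IL1R1, TLR3, TLR4, MYD88, IRAK1, TRAF3, TAB2 or SHARPIN. Among 34 further target genes, H3K4me3 was at 8 starts (23.5%, 10.7 to 41.2) and H3K27ac at 7 (20.6%, 8.70 to 37.9). The highest H3K4me3 values were at the survival genes BCL2L1 (6.90) and CFLAR (4.26), at PTGS2 (3.56), which encodes an inducible prostaglandin synthase, and at the cytokine gene CSF2 (3.45).

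Neither mark was at 24 of the 34 starts of further targets (70.6%, 52.5 to 84.9), an interval that includes the 56.8% of all protein-coding genes. Among them were the chemokine genes CXCL2, CXCL5, CXCL6, CXCL10, CCL2, CCL5 and CCL20, and the cytokine genes IL6, IL1A, IL1B, TNF, CSF3 and LTB. The adhesion genes VCAM1 and SELE, the signalling and survival genes TRAF1, TNIP1, BIRC2 and BCL2A1, the transcription factor gene IRF1, and MMP9, LCN2, SAA1 and C3 made up the rest. CXCL3 was the only chemokine gene of the list with a mark at its start, H3K4me3 with a value of 3.16. The 6 targets among the 10 genes themselves, counting NFKBIA and TNFAIP3, had 1 start with both marks and 5 with neither, too few to set against the 56.8% of all genes. As the lists are short, their intervals overlap one another, and no difference between the lists was tested.

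**Figure D5:**
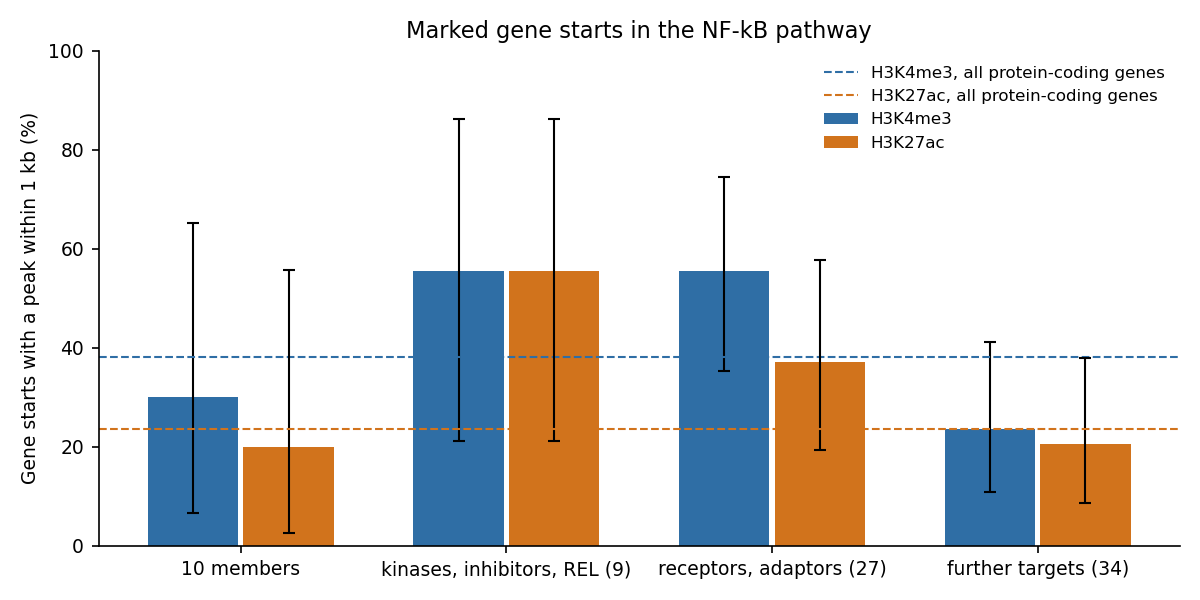
Share of gene starts (%) with a peak within 1 kb, for the 10 genes and 3 lists of other pathway genes (number of genes in brackets), H3K4me3 in blue and H3K27ac in orange. Error bars are exact Clopper-Pearson 95% intervals, and dashed lines give the shares over all protein-coding genes (38.2% and 23.6%). The further targets have the lowest H3K4me3 share (23.5%) and the receptor list one of 55.6%, with intervals that overlap.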

How the data were processed

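According to the submitters' processing notes, the tools used were bcl2fastq 1.8.4, Bowtie 1.1.1, SAMtools 1.2, Picard 1.118, MACS2 2.1.0 and ChIPseeker 1.6.6, on hg19. The calling threshold, the treatment of duplicate reads and the use of the input in peak calling are not given in the sources used here. The deposited lists have no header, and their last column was taken to be the −log10 q of each summit from the authors' peak calling, because its values were never negative and began at 1.303 and 1.306, just above 1.301 for a q of 0.05. This value grows with sequencing depth and local copy number and was used only within a list. Read counts are not in the lists, so the depth is unknown, and a missing peak may also reflect too few reads.

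Distinct intervals were kept once with their highest value, which left 24096 of 25275 H3K27ac entries and 18585 of 20282 H3K4me3 entries. Peaks were assigned to genes of GENCODE 44 by position with Python 3.11.15, pandas 2.3.3 and numpy 2.4.6, and intervals were computed with SciPy 1.17.1. Interval, joining and motif searches were tested on simulated data with known answers. Samples were grouped by the antibody in the labels, and with 1 library per mark no test was made. All 10 genes are named, with neighbouring genes whose start was marked and, from each pathway list, up to 4 genes with the highest H3K4me3 value and those with neither mark. Other genes were named after their values were seen. The 10 genes and the lists were chosen with earlier results of these data known. PECAM1, a planned endothelial marker, had no match among the protein-coding genes. 1 peak sequence is not reported here. The alternatives were other distances, starts, windows, peak definitions, overlaps and motif forms.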

Additional observations from a re-analysis of the deposited data

How the results depend on the processing

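Each result was computed again with 1 choice changed at a time, which gave 38 values for 11 results. Of these, 25 stayed within the tolerance (a factor of 1.5 for counts and lengths, the exact 95% interval for shares) and 13 moved. The count of starts with H3K4me3 stayed at 3 of the 10 genes under every alternative run, and that with H3K27ac at 2 except in the upper part of the list by median −log10 q, where it was 1, without RELA. In that upper part, fewer peaks being kept, 16 of the 70 pathway genes had H3K4me3 instead of 28, and the windows held 26 H3K27ac peaks (12.2 kb) instead of 46 (18.5 kb) and 17 H3K4me3 peaks (8.46 kb) instead of 31 (13.6 kb). Windows of 10 kb, smaller by construction, held 16 H3K27ac peaks (5.56 kb) and 11 H3K4me3 peaks (4.93 kb), and the gene bodies alone 6 and 5. Counting the other mark within 1 kb as overlap raised the H3K4me3 share from 45.2% to 64.5%. The alternatives without peaks of repeated sequence, without the NFKBIA window and with the closest promoter only were chosen after seeing the data, and moved no value beyond the tolerance. No paired analysis was possible because replicates were lacking (1 library per mark), and for the same reason none could be left out. The unknown depth limits every statement on a missing peak.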

Other observations

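Some genes of the pathway lists had many H3K27ac peaks over the gene or within 50 kb, and are named here after their values were seen. BCL2L1, which encodes an inhibitor of apoptosis, had 24 H3K27ac and 10 H3K4me3 peaks, IKBKB, a catalytic IkB kinase gene, had 20 and 8, and LIF, which encodes a cytokine of the interleukin-6 family, had 18 and 2. The receptor genes TNFRSF1A and LTBR, both on chromosome 12, had 16 H3K27ac and 10 H3K4me3 peaks each. Windows of genes that lie close together can hold the same peaks, so these equal counts need not be separate peaks. On chromosome 5, IRF1 had 15 H3K27ac peaks in its window and CSF2 had 15, yet CSF2 had both marks at its start and IRF1 had neither within 1 kb. TNIP1, whose product works with that of TNFAIP3, had 13 H3K27ac and 5 H3K4me3 peaks in its window without a mark at the start. At the other end, TLR3, TLR4, IRAK1, CCL2, CCL5, CCL20, VCAM1, SAA1 and CXCL6 had no peak of either mark in the window. The same held for 23.6% of all protein-coding genes, so an empty window did not set these genes apart. The windows differ in length with the gene, and no difference between these genes was tested.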
